A study of Mus musculus with 12 samples.

Results

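The transcriptional response to uniSTING mRNA was set against the response to extracellular vesicles from uniSTING-treated cells, gene by gene, in mouse libraries that express leukocyte markers. The comparison is the interaction contrast (4T1 uniSTING minus 4T1 Mock) minus (DC2.4 EXOuniSTING minus DC2.4 EXOmock), and it used 8 of the 12 bulk RNA-seq libraries of the series. The first pair of groups holds wild-type cells labelled 4T1, a mouse mammary carcinoma line, given uniSTING mRNA (2 libraries) or the Mock mRNA, which encodes EGFP (2 libraries). The second pair holds wild-type cells labelled DC2.4, an immortalised mouse dendritic cell line, kept for 24 hours with vesicles isolated from 4T1 cells that had received uniSTING (EXOuniSTING, 2 libraries) or Mock (EXOmock, 2 libraries). The mRNAs went in with a transfection reagent, TransIT-mRNA, or inside SS-OP lipid nanoparticles, and the labels give neither which of them each library received nor how long the mRNA treatment lasted. Each group is 1 cell line in 2 numbered preparations, which no label calls separate cultures. The tests therefore rest on the scatter between libraries of a group alone, and that scatter may be technical. It was estimated over all 12 libraries of the series, including those that do not enter the contrast. The mRNA and vesicle responses each have their own control libraries, and they differ in agent, delivery, label and possibly time, which cannot be told apart in the interaction.

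STING is an adaptor in the endoplasmic reticulum membrane that is activated by cyclic dinucleotides made from cytosolic DNA. It recruits the kinase TBK1, which activates the transcription factor IRF3 and, with NF-kB, drives type I interferon and inflammatory genes. Secreted interferon then acts through the receptor IFNAR, JAK kinases and transcription factors that bind the interferon-stimulated response element (ISRE) of interferon-stimulated genes. The series describes uniSTING as a universal STING mimic, and vesicles carry proteins and RNA between cells.

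The libraries labelled 4T1 did not carry the markers of that label. Ptprc (CD45, found on nearly all leukocytes) had 322 and 327 CPM (counts per 1000000 counts of the library) in the uniSTING libraries against 310 and 312 CPM in the Mock libraries. In the vesicle libraries it had 305 and 302 CPM with EXOuniSTING and 309 and 310 CPM with EXOmock. Spi1, the myeloid factor PU.1, had 188 and 184 CPM in uniSTING against 190 and 191 CPM in Mock libraries, and 201 and 201 CPM with EXOuniSTING against 181 and 179 CPM with EXOmock. It was a vesicle-only gene, which rose by 0.16 ± 0.03 on the log2 scale with vesicles (adjusted p = 0.00387) and had an interaction of -0.22 ± 0.04 (adjusted p = 0.00171). Epcam, an epithelial adhesion gene, was at 0 in every preparation 2 library and reached at most 0.737 CPM in preparation 1. The summed level of 25 leukocyte and myeloid markers was 11700 CPM in the uniSTING libraries and 12200 CPM in the Mock libraries. It was 14200 to 14900 CPM with EXOuniSTING and 17000 to 17100 CPM with EXOmock. Much of that last gap was Lyz2, the lysozyme of macrophages, at 6550 and 5770 CPM with EXOuniSTING against 8610 and 8640 CPM with EXOmock, a difference that did not pass the test (adjusted p = 0.206). The sum of 20 epithelial markers was 172 CPM in uniSTING and 170 CPM in Mock libraries, 149 to 151 CPM with EXOuniSTING and 133 to 142 CPM with EXOmock, whereas in the 4 libraries labelled DC2.4 that received mRNA it was 6080 to 6330 CPM, beside a leukocyte sum of 145 to 191 CPM. The libraries are therefore called by their labels here, with the reservation that the cells labelled 4T1 express leukocyte genes. Of 10 dendritic cell markers, 3 were measured well enough to be tested, and Irf8, which encodes a factor needed for dendritic and monocyte development, supplied most of their reads.

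Total counts per library were 14059040 to 25975658, so that 3 counts correspond to 0.115 to 0.213 CPM. Mitochondrial mRNAs took 2.41 and 2.38% of counts in uniSTING and 2.28 and 2.26% in Mock libraries, 2.14 and 2.11% with EXOuniSTING and 1.97 and 1.96% with EXOmock; their part in the results was not tested. Ins2 and Sftpc, which belong to pancreas and lung, had 171 to 1296 and 523 to 729 counts in the 4 preparation 1 libraries and 0 in the 4 preparation 2 libraries.

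The promoters of 5 genes are shown, each with the motif that was looked for in its gene group. They are RefSeq promoters of GRCm38.p6, an older build than the GRCm39 of the counts, and each runs over 300 bases ending just inside the transcript, 5′ to 3′ on the strand of the gene. Ifit1 (chr19:34640639-34640938, plus strand), an interferon-stimulated gene, was chosen as it rose with vesicles and not with mRNA, and Rsad2 (chr12:26456403-26456702, minus strand) as it rose with both. Ifitm3 (chr7:141010695-141010994, minus strand) was chosen as it rose with mRNA and not with vesicles. Lamp1 (chr8:13158911-13159210, plus strand) and Rrm1 (chr7:102441445-102441744, plus strand) were chosen from the lysosomal and the S phase list. Among members with 1 promoter scanned, they have the lowest interaction p of those that hold the motif. Capitals mark the ISRE core (GAAA, any 2 bases, GAAA) in the first 3, the E-box CACGTG in Lamp1 and the E2F motif TTCCCGC in Rrm1, each read on both strands.
Ifit1: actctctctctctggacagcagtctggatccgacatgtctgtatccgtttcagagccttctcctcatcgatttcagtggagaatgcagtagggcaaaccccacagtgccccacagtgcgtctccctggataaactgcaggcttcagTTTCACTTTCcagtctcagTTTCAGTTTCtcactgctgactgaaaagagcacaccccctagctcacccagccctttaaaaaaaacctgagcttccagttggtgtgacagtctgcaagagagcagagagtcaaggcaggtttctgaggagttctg
Rsad2: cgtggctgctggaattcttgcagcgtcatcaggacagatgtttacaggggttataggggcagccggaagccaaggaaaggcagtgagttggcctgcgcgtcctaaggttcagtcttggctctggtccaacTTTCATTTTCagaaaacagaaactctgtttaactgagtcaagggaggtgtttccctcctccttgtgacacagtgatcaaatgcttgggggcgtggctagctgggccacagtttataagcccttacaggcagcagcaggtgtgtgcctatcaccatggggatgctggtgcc
Ifitm3: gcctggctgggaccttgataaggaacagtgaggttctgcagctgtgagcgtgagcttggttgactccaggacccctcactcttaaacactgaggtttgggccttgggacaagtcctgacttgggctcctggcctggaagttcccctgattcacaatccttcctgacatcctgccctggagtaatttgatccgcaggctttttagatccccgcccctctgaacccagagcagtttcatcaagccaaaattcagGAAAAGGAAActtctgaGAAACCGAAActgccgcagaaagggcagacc
Lamp1: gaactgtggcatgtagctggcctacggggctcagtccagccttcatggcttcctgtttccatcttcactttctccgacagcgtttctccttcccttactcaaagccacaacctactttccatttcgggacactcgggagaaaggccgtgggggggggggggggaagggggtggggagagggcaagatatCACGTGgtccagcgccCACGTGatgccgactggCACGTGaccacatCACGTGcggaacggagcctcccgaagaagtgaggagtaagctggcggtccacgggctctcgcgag
Rrm1: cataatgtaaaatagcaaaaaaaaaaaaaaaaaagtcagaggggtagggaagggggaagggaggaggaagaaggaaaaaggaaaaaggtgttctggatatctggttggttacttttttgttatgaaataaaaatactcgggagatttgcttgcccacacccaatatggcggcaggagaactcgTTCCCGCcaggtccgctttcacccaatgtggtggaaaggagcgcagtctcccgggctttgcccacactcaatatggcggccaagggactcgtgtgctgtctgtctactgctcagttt
A gene was counted when any of its promoters held the motif, and the promoters of 1 chromosome were not scanned. The ISRE core stood in 14 of the 29 scanned interferon-stimulated genes that rose with vesicles (48.3%). It stood in 7 of 13 of those that did not (53.8%) and in 3.99% of all 27025 genes scanned. The E-box stood in 11 of 26 lysosomal genes (42.3%, against 8.09% of all genes scanned) and the E2F motif in 13 of 30 S phase genes (43.3%, against 5.29%). These are matches of letters in 1 window, and a match of one motif may overlap a match of another.

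Across the genome the mRNA and the vesicle response went mostly in opposite directions where both were called. Of 14863 genes tested with edgeR's quasi-likelihood test at a Benjamini-Hochberg adjusted p below 0.05, 1878 rose and 2331 fell with uniSTING mRNA (28.3% called in all), and 1183 rose and 1210 fell with EXOuniSTING (16.1%). The interaction was called for 4157 genes (28.0%), of which 1929 had the higher log2 fold change with mRNA (13.0%) and 2228 with vesicles (15.0%); a fit of the 8 libraries alone gave 2314 and 2250. Both responses were called for 1195 genes (8.04% of genes tested), which is 28.4% of the mRNA calls and 49.9% of the vesicle calls. Of these, 927 went in opposite directions (77.6%, or 6.24% of genes tested), 420 higher with mRNA and lower with vesicles (2.83% of genes tested) and 507 lower with mRNA and higher with vesicles (3.41%). Only 268 went the same way (1.80% of genes tested): 110 rose and 158 fell in both. Upper-quartile scaling turned that balance, with 161 rising and 109 falling in both, and likewise that of the mRNA calls, with 2195 rising and 2020 falling. In bulk RNA, fewer cells of a type and less RNA per cell cannot be told apart, and this holds for every difference given here.

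Most opposite changes were small. The median absolute log2 fold change of the 927 opposite genes was 0.23 with mRNA and 0.20 with vesicles, and that of the 268 same-direction genes was 0.19 with both. Both responses reached 1.5-fold in 28 opposite and 11 same-direction genes (0.188% and 0.074% of genes tested), and 2-fold in 13 and 9 (0.0875% and 0.0606%). A further 851 genes rose (5.73%) and 1065 fell (7.17%) with mRNA while the vesicle response missed the threshold and the interaction was called (mRNA-only genes, 12.9% of genes tested). With vesicles, 389 rose (2.62%) and 414 fell (2.79%) in this way (vesicle-only genes, 5.40%). Which direction was the more frequent depended on the scaling: upper-quartile factors gave 1032 mRNA-only genes that rose and 874 that fell, and a fit of the 8 libraries alone 1040 and 1008. Vesicle-only genes numbered 468 rising and 356 falling with upper-quartile factors, and 423 and 375 with DESeq2 size factors. For 1493 genes a single response was called without a called interaction, and these are left unassigned. Over the 10215 genes with at least 5 CPM in a group, the Spearman correlation of the mRNA and vesicle log2 fold changes was -0.23; it was -0.19 in preparation 1 alone, -0.22 in preparation 2 alone, and -0.21 and -0.20 when each response came from a different preparation. This is a description across genes, which share libraries within a response and are not independent. All 927 opposite genes kept both directions in each preparation taken alone, from the same libraries that made the calls.

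Leaving out any 1 library, mRNA or vesicle, left 1 library in its group and lowered the numbers of called interactions and of opposite genes. Opposite genes fell further without a vesicle library than without an mRNA library. Whether a fall came from the library left out or from having fewer libraries was not tested. The falls given here are among the larger ones. Opposite genes higher with mRNA numbered 267 without EXOuniSTING preparation 2 and 258 without EXOmock preparation 2, and opposite genes lower with mRNA 297 without EXOuniSTING preparation 2, 314 without EXOmock preparation 1 and 323 without EXOmock preparation 2. Vesicle-only genes that rose numbered 194 to 259 without any 1 of the 4 vesicle libraries, vesicle-only genes that fell 247 without EXOuniSTING preparation 2 and 263 without EXOmock preparation 2, and mRNA-only genes that fell 685 without Mock preparation 2. The share of both-called genes that were opposite stayed between 76.8 and 80.6% over the 16 alternatives.

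**Figure D1:**
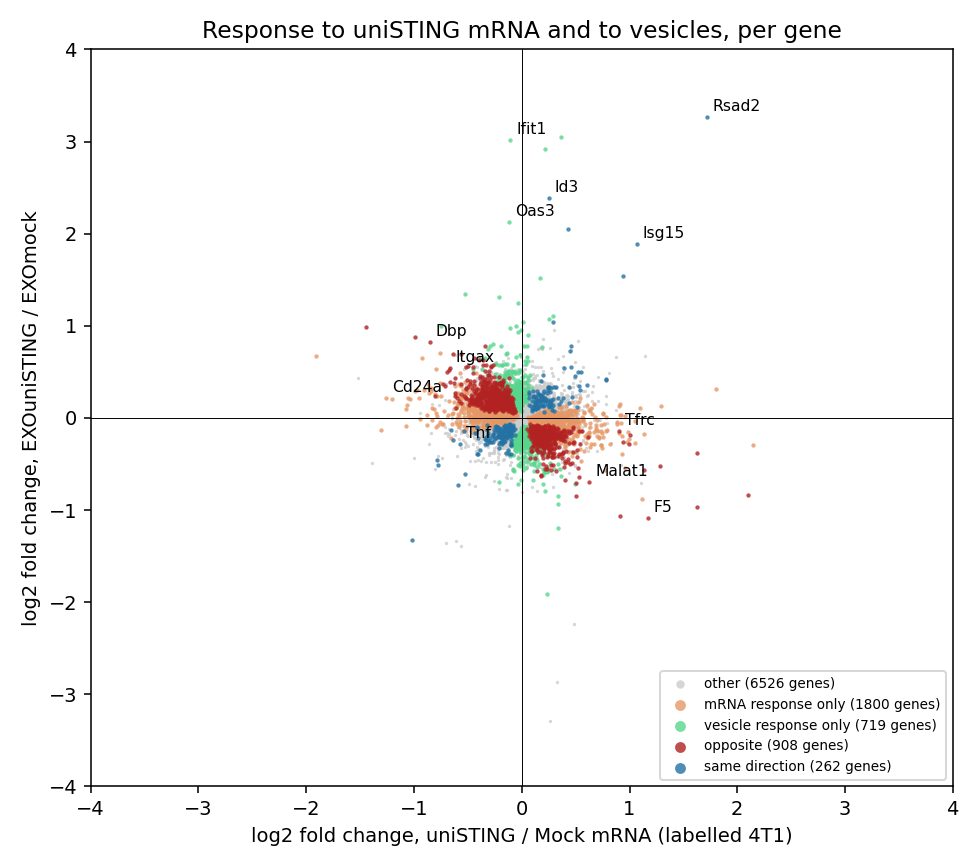
Log2 fold change of uniSTING over Mock mRNA (x axis) against that of EXOuniSTING over EXOmock (y axis) for genes with at least 5 CPM in a group; each point is a gene, colours give the class of response, and 1 gene lies beyond the axes. Opposite genes (red) fill the upper left and lower right quadrants close to the origin, and the interferon-stimulated genes Rsad2, Isg15, Ifit1 and Oas3 stand at the top.

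Interferon-stimulated genes rose with vesicles and largely did not pass the test with mRNA. Of 54 tested members of this list, 39 rose and 0 fell with EXOuniSTING (7.96% of all genes rose), and 10 rose and 5 fell with uniSTING mRNA (12.6% and 15.7% of all genes). The median log2 fold change was 0.72 with vesicles and 0.05 with mRNA, against medians of 0.0 and -0.006 over all genes tested. The interaction was called for 33, 32 of them higher with vesicles. With the 2 members that were at 0 in a group set to their bound, the medians were 0.68 and 0.05. By class, 24 were vesicle-only and higher, 8 rose in both, 4 fell with mRNA and rose with vesicles, and Ifitm3 alone was mRNA-only and higher.

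The oligoadenylate synthetases, which make the activator of the antiviral nuclease RNase L, and Ifit1, whose protein binds viral RNA, were among the vesicle-only genes of large interaction. Oas3 (chr5:120891163-120915726) had 61.0 and 61.1 CPM in uniSTING against 65.9 and 64.1 CPM in Mock libraries, and 39.4 and 39.9 CPM with EXOuniSTING against 10.0 and 8.29 CPM with EXOmock. Its log2 fold change was -0.12 ± 0.07 (SE) with mRNA (adjusted p = 0.266) and 2.13 ± 0.10 with vesicles (adjusted p = 3.57e-08), and the interaction was -2.25 ± 0.13 (adjusted p = 4.15e-08). Thus Oas3 was already high in the cells labelled 4T1, in Mock and uniSTING libraries alike, and the vesicle groups did not overlap. Ifit1 (chr19:34618271-34627409), whose promoter above holds the ISRE core, had 0.662 and 0.423 CPM in uniSTING against 0.615 and 0.516 CPM in Mock libraries, and 6.50 and 6.41 CPM with EXOuniSTING against 0.640 and 0.909 CPM with EXOmock. Its log2 fold change was -0.10 ± 0.34 with mRNA (adjusted p = 0.897) and 3.02 ± 0.25 with vesicles (adjusted p = 3.56e-06). Unlike Oas3, Ifit1 was low in all groups other than EXOuniSTING. Oasl2, an OAS-like gene, had 9.31 and 7.91 CPM with EXOuniSTING against 1.07 and 1.18 CPM with EXOmock, and 1.27 and 1.31 CPM in uniSTING against 1.17 and 1.03 CPM in Mock libraries. Oas2 had 10.7 and 11.2 CPM with EXOuniSTING against 1.35 and 1.28 CPM with EXOmock, and 3.46 and 3.66 CPM in uniSTING against 2.52 and 2.90 CPM in Mock libraries (mRNA adjusted p = 0.178). The interactions were -2.70 ± 0.28 for Oasl2 and -2.69 ± 0.28 for Oas2 (adjusted p = 9.77e-06 and 1.42e-05).

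Low-level members moved in the same way with vesicles. Cxcl10, a chemokine that draws activated T cells, had 2.28 and 2.73 CPM with EXOuniSTING against 0.498 and 0 CPM with EXOmock, and 0.458 and 0.269 CPM in uniSTING against 0.447 and 0.357 CPM in Mock libraries. Its interaction was -3.68 ± 0.94 (adjusted p = 0.00933). Rtp4, an interferon-stimulated receptor transporter, had 139 counts over the EXOuniSTING libraries and 0 over the EXOmock libraries, at least 42.0-fold higher when 3 counts over the group stand for 0. Ifnb1, the interferon itself, had counts in a single library, 0.0942 CPM in EXOuniSTING preparation 2, and was not tested.

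Among the 8 interferon-stimulated genes that rose in both were Rsad2, Isg15 and Ifi204. Rsad2 (chr12:26492745-26506451), which encodes the antiviral enzyme viperin, had 1.78 and 1.39 CPM in uniSTING against 0.447 and 0.476 CPM in Mock libraries, and 7.03 and 8.38 CPM with EXOuniSTING against 0.925 and 0.695 CPM with EXOmock. Its log2 fold change was 1.72 ± 0.28 with mRNA (adjusted p = 0.000409) and 3.27 ± 0.24 with vesicles (adjusted p = 1.19e-06). The interaction of -1.55 ± 0.40 (adjusted p = 0.0095) was not called without Mock preparation 2 (0.0848) or without EXOmock preparation 2 (0.0503), in a range of 0.00863 to 0.0848 over the alternatives. Isg15, a ubiquitin-like modifier, had 2.95 and 2.31 CPM in uniSTING against 1.40 and 1.07 CPM in Mock libraries, and 6.43 and 6.22 CPM with EXOuniSTING against 1.49 and 1.87 CPM with EXOmock. Its interaction of -0.82 ± 0.28 (adjusted p = 0.0447) held in 6 of 16 alternatives (0.0279 to 0.228), so a larger vesicle response of Isg15 is not settled. Ifi204, an IFI200 family gene, rose by 0.94 ± 0.15 on the log2 scale with mRNA and 1.54 ± 0.15 with vesicles (adjusted p = 0.000411 and 1.95e-05), with an interaction adjusted p of 0.0612. Each of these genes was lower in Mock and EXOmock libraries than in the treated libraries.

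Some members went against the list. Ifitm3, a membrane protein that restricts viral entry, had 317 and 312 CPM in uniSTING against 228 and 230 CPM in Mock libraries, and 315 and 324 CPM with EXOuniSTING against 326 and 325 CPM with EXOmock. Its log2 fold change was 0.43 ± 0.03 with mRNA (adjusted p = 3.42e-07) and -0.02 ± 0.03 with vesicles (adjusted p = 0.691); its promoter, shown above, holds the ISRE core. Lgals3bp, a secreted galectin-3 ligand, had 29.9 and 29.7 CPM in uniSTING against 36.7 and 37.1 CPM in Mock libraries, and 33.9 and 32.7 CPM with EXOuniSTING against 19.1 and 19.4 CPM with EXOmock. It fell with mRNA, at -0.34 ± 0.06 (adjusted p = 0.000788), and rose with vesicles, at 0.79 ± 0.07 (adjusted p = 8.34e-06). Bst2 and Dtx3l, named after their values were seen, shared this pattern at -0.20 and 0.38 and at -0.18 and 0.37.

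STING pathway genes that were called fell with mRNA or rose with vesicles. Of 13 tested pathway genes, 0 rose and 5 fell with mRNA (12.6% and 15.7% of all genes), and 2 rose and 0 fell with vesicles (7.96% and 8.14%). The interaction was called for 6 of the 13 (28.0% of all genes), all higher with vesicles. Tmem173, which encodes STING, had 41.1 and 43.9 CPM in uniSTING against 39.5 and 42.3 CPM in Mock libraries, and 47.2 and 49.0 CPM with EXOuniSTING against 38.9 and 44.9 CPM with EXOmock, with no call for either response (adjusted p = 0.837 and 0.0958). Tbk1, its kinase, and Irf3, the factor TBK1 activates, were not called either, with interactions of -0.13 ± 0.07 and 0.25 ± 0.09 (adjusted p = 0.236 and 0.0577). Irf3 passed in 6 of 16 alternatives (0.0214 to 0.195). The receptor genes Ifnar1 and Ifnar2 fell with mRNA alone. Ifnar1 had 96.7 and 98.4 CPM in uniSTING against 119 and 119 CPM in Mock libraries, and 90.8 and 92.6 CPM with EXOuniSTING against 83.1 and 85.5 CPM with EXOmock (interaction -0.44 ± 0.05, adjusted p = 3.89e-05). Tyk2, the JAK kinase bound to IFNAR1, had 62.1 and 63.6 CPM in uniSTING against 75.1 and 74.0 CPM in Mock libraries, and 57.7 and 57.9 CPM with EXOuniSTING against 48.8 and 51.2 CPM with EXOmock. It fell with mRNA and rose with vesicles (adjusted p = 0.00151 and 0.0326). The delivered mRNA was not analysed here.

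**Figure D2:**
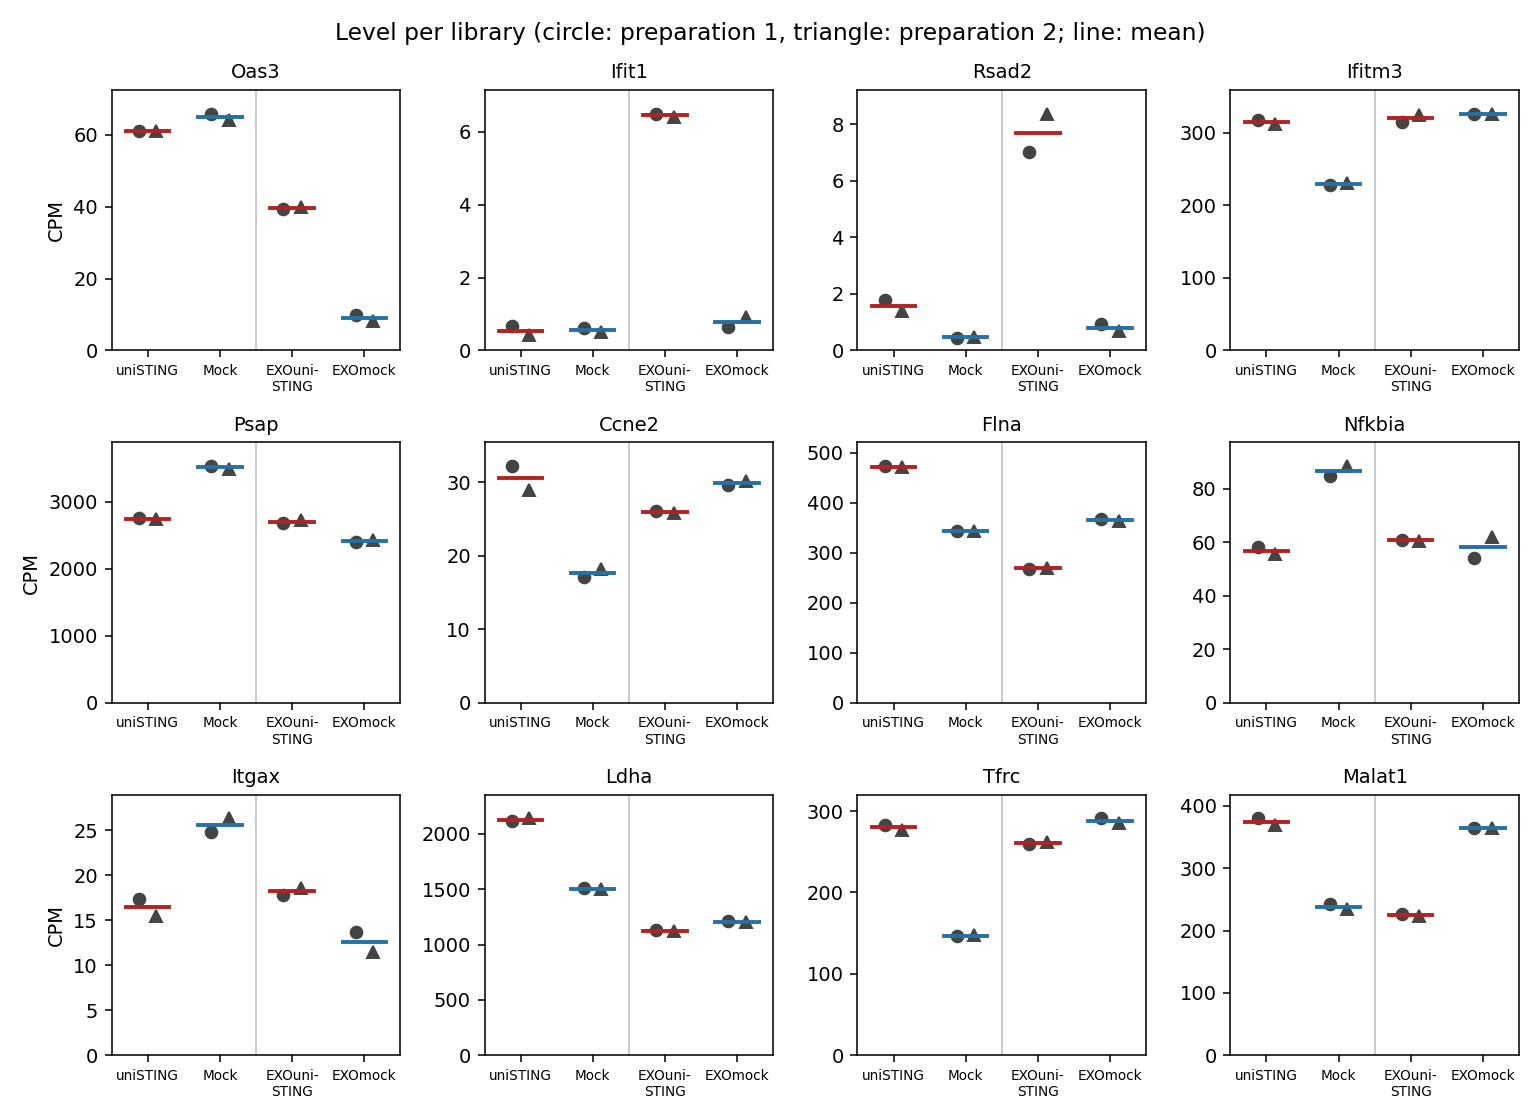
CPM of 12 genes in each library (y axis), with uniSTING left of Mock and EXOuniSTING left of EXOmock; circles are preparation 1, triangles preparation 2 and horizontal lines group means. Oas3 and Ifit1 differ mostly between the vesicle groups, Ifitm3 and Nfkbia between the mRNA groups, and Psap, Flna, Itgax and Malat1 separate both pairs in opposite directions.

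Lysosomal genes fell with mRNA and rose with vesicles. The list holds hydrolases, membrane proteins and subunits of the V-ATPase, the pump that acidifies the lysosome. All 34 members were tested, and 2 rose and 24 fell with mRNA (background 12.6% and 15.7%), whereas 18 rose and 0 fell with vesicles (7.96% and 8.14%). The median log2 fold change was -0.16 with mRNA and 0.09 with vesicles, and the interaction was called for 28, of which 25 were higher with vesicles. Opposite calls with mRNA lower numbered 17, against 3.41% of all genes. Psap, the precursor of the saposins that help degrade sphingolipids, had 2750 and 2740 CPM in uniSTING against 3530 and 3490 CPM in Mock libraries, and 2680 and 2720 CPM with EXOuniSTING against 2400 and 2430 CPM with EXOmock. Its log2 fold change was -0.38 ± 0.02 with mRNA (adjusted p = 7.27e-09) and 0.16 ± 0.02 with vesicles (adjusted p = 5.3e-05). The groups did not overlap in either experiment, and the Mock level was the highest of the 4. Ctsz, a cysteine protease, had 910 and 925 CPM in uniSTING against 1120 and 1120 CPM in Mock libraries, and 1060 and 1070 CPM with EXOuniSTING against 962 and 971 CPM with EXOmock. Gpnmb, a glycoprotein of lysosome-rich macrophages, had 6040 and 6020 CPM in uniSTING against 7610 and 7640 CPM in Mock libraries, and 5660 and 5690 CPM with EXOuniSTING against 5210 and 5200 CPM with EXOmock. Hexa, a subunit of hexosaminidase, had 454 and 456 CPM in uniSTING against 566 and 576 CPM in Mock libraries, and 611 and 600 CPM with EXOuniSTING against 564 and 563 CPM with EXOmock. The interactions of these 3 lay between -0.49 and -0.46. Tfeb, named after its values were seen, encodes a transcription factor known to drive lysosomal genes through an E-box type element. It was in the opposite class, at -0.29 ± 0.09 with mRNA and 0.41 ± 0.10 with vesicles. Its part in the changes of the list was not tested. Ctsl and Gla were the exceptions that rose with mRNA, at 0.22 and 0.15.

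DNA replication genes rose with mRNA. Of 36 tested genes of DNA replication and S phase, 30 rose and 0 fell with mRNA (12.6% and 15.7% of all genes), and 3 rose and 4 fell with vesicles (7.96% and 8.14%). The median log2 fold change was 0.19 with mRNA and -0.01 with vesicles, and the interaction was called for 20, all higher with mRNA. Mcm5, a subunit of the replicative helicase, had 180 and 183 CPM in uniSTING against 146 and 143 CPM in Mock libraries, and 141 and 143 CPM with EXOuniSTING against 154 and 153 CPM with EXOmock. It rose by 0.30 ± 0.02 on the log2 scale with mRNA (adjusted p = 1.03e-06) and fell with vesicles at -0.11 ± 0.03 (adjusted p = 0.0107). Rrm1, the large subunit of ribonucleotide reductase, whose promoter is shown above, had 350 and 350 CPM in uniSTING against 295 and 296 CPM in Mock libraries, and 229 and 227 CPM with EXOuniSTING against 243 and 241 CPM with EXOmock. Ccne2, cyclin E2, which starts S phase with CDK2, had 32.2 and 28.9 CPM in uniSTING against 17.1 and 18.2 CPM in Mock libraries. In the vesicle libraries it had 26.1 and 25.8 CPM with EXOuniSTING and 29.6 and 30.2 CPM with EXOmock (adjusted p = 0.143), and its interaction was 0.96 ± 0.13 (adjusted p = 7.34e-05). Ccne2 overlaps Ints8 on the other strand, and the counting did not use strand. Pcna, the sliding clamp of DNA polymerases, rose in both, by 0.30 ± 0.02 and 0.08 ± 0.02 (adjusted p = 2.18e-07 and 0.0261), and rose more with mRNA (interaction adjusted p = 9.35e-05).

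Cytoskeletal and adhesion genes were called mostly higher with mRNA and mostly lower with vesicles. Of 35 tested members, 18 rose and 4 fell with mRNA (12.6% and 15.7% of all genes), and 4 rose and 14 fell with vesicles (7.96% and 8.14%). The median log2 fold change was 0.10 with mRNA and -0.05 with vesicles; 11 genes were opposite with mRNA higher, against 2.83% of all genes. Flna, filamin A, which crosslinks actin filaments, had 473 and 471 CPM in uniSTING against 343 and 344 CPM in Mock libraries, and 268 and 269 CPM with EXOuniSTING against 367 and 364 CPM with EXOmock. Its log2 fold change was 0.43 ± 0.02 with mRNA (adjusted p = 4.37e-09) and -0.45 ± 0.02 with vesicles (adjusted p = 1.45e-08), and its interaction of 0.88 ± 0.03 had an adjusted p of 2.54e-10. The giant linker genes Macf1 and Dst, which tie microtubules and intermediate filaments to actin, followed it. Macf1 had 402 and 400 CPM in uniSTING against 325 and 320 CPM in Mock libraries, and 133 and 126 CPM with EXOuniSTING against 184 and 184 CPM with EXOmock. Dst had 303 and 293 CPM in uniSTING against 238 and 232 CPM in Mock libraries, and 144 and 143 CPM with EXOuniSTING against 216 and 213 CPM with EXOmock. Their interactions were 0.80 ± 0.04 and 0.89 ± 0.04. Vim, the intermediate filament vimentin, went the other way, with 1770 and 1780 CPM in uniSTING against 1900 and 1910 CPM in Mock libraries and 1440 and 1450 CPM with EXOuniSTING against 1160 and 1160 CPM with EXOmock. Over genes with at least 5 CPM, exonic length had Spearman correlations of -0.12 with the mRNA and -0.15 with the vesicle log2 fold change. With the interaction, that correlation was -0.0.

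**Figure D3:**
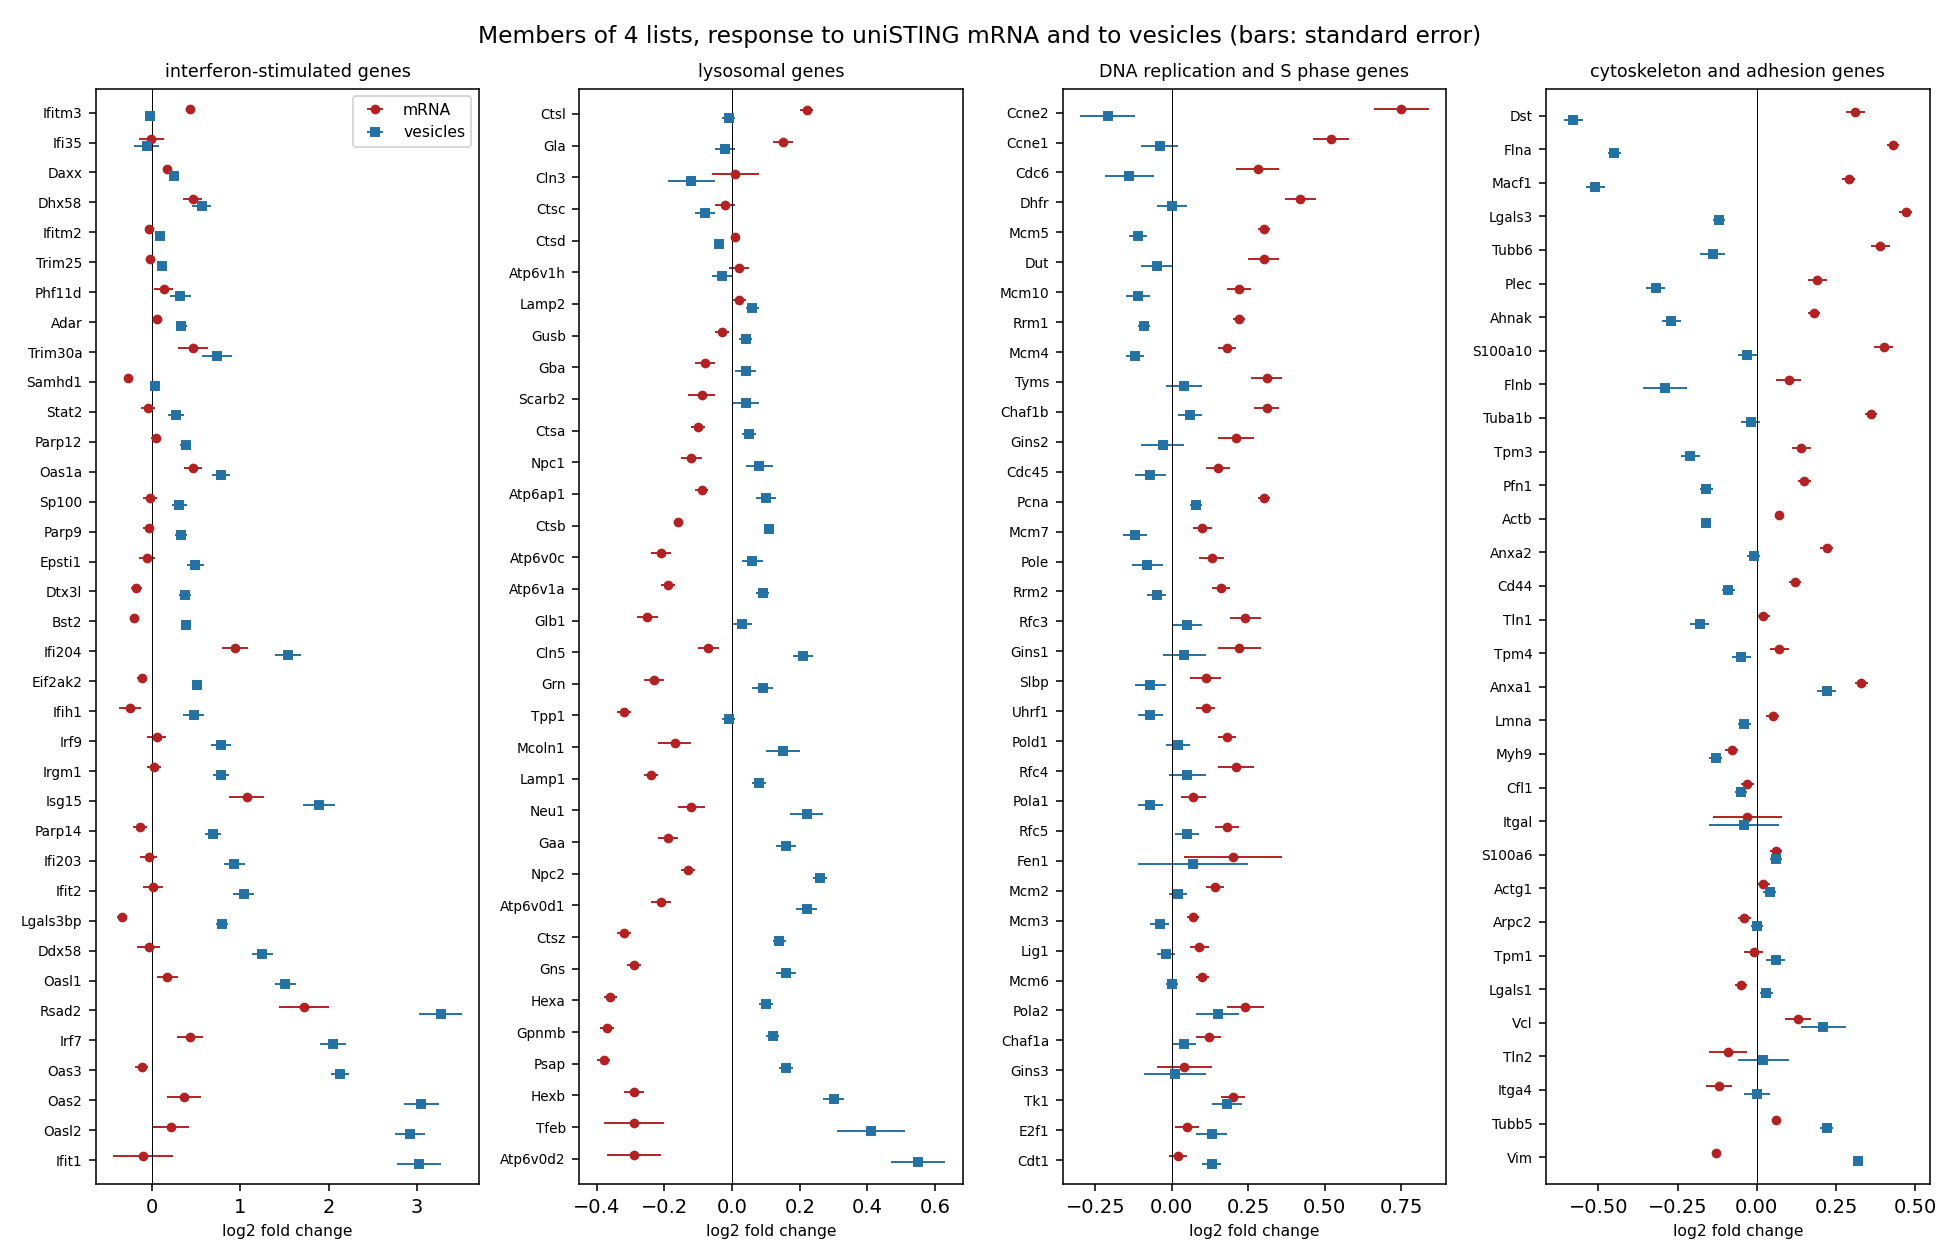
Log2 fold change (x axis, bars are standard errors) of members of 4 gene lists with at least 5 CPM in a group (1 interferon-stimulated gene is not drawn), with mRNA (red circles) above vesicles (blue squares) in each row and genes ordered by interaction. Interferon-stimulated genes spread far to the right with vesicles, most lysosomal genes lie left of 0 with mRNA and right of 0 with vesicles, and most S phase and many cytoskeletal genes lie right of 0 with mRNA.

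Many targets of NF-kB, the inflammatory transcription factor, fell with mRNA. Of 39 tested targets, 2 rose and 20 fell with mRNA (12.6% and 15.7% of all genes), and 5 rose and 6 fell with vesicles (7.96% and 8.14%), with median log2 fold changes of -0.31 and 0.0. Nfkbia, the inhibitor that NF-kB itself induces, had 58.1 and 55.5 CPM in uniSTING against 84.6 and 88.4 CPM in Mock libraries, and 60.9 and 60.5 CPM with EXOuniSTING against 54.1 and 61.9 CPM with EXOmock. It was mRNA-only and lower, at -0.64 ± 0.06 (adjusted p = 2.05e-06) and an interaction of -0.70 ± 0.08 (adjusted p = 3.63e-05). The subunit genes Relb and Nfkb2 fell with mRNA and rose with vesicles. Relb had 20.3 and 23.4 CPM in uniSTING against 35.1 and 36.3 CPM in Mock libraries, and 37.9 and 35.9 CPM with EXOuniSTING against 27.8 and 29.4 CPM with EXOmock. Nfkb2 had 75.2 and 73.0 CPM in uniSTING against 95.9 and 95.9 CPM in Mock libraries, and 66.2 and 66.5 CPM with EXOuniSTING against 61.2 and 57.6 CPM with EXOmock. Plau, the urokinase plasminogen activator, gave the smallest interaction p of the list (adjusted p = 2.69e-10). It had 610 and 614 CPM in uniSTING against 865 and 845 CPM in Mock libraries, and 633 and 640 CPM with EXOuniSTING against 474 and 485 CPM with EXOmock.

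Tnf fell in both. It had 29.0 and 28.5 CPM in uniSTING against 42.2 and 41.8 CPM in Mock libraries, and 33.6 and 36.5 CPM with EXOuniSTING against 42.3 and 43.0 CPM with EXOmock. Its log2 fold changes were -0.57 ± 0.08 and -0.28 ± 0.08 (adjusted p = 7.27e-05 and 0.0245); the interaction of -0.29 ± 0.11 missed the threshold (adjusted p = 0.0581) and passed it in 5 of 16 alternatives (0.0114 to 0.208). Of 32 tested immediate early genes and feedback genes of the ERK pathway, 0 rose and 14 fell with mRNA (12.6% and 15.7% of all genes), and 3 rose and 7 fell with vesicles (7.96% and 8.14%). Jun, an AP-1 subunit, had 146 and 161 CPM in uniSTING against 198 and 202 CPM in Mock libraries, and 177 and 178 CPM with EXOuniSTING against 155 and 149 CPM with EXOmock (interaction -0.63 ± 0.06, adjusted p = 2.96e-06). Atf3 and Dusp4, a stress factor and an ERK phosphatase, were opposite like Jun, with interactions of -0.54 ± 0.05 and -0.46 ± 0.04. These 3 were the only opposite members of the list, and 4 members fell in both without a called interaction. Fosl1, another AP-1 subunit, fell with vesicles: it had 3.95 and 4.85 CPM with EXOuniSTING against 8.32 and 7.81 CPM with EXOmock, and 3.67 and 3.31 CPM in uniSTING against 2.68 and 2.70 CPM in Mock libraries (interaction 1.19 ± 0.19, adjusted p = 0.000354).

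Few chemokine and receptor genes were called with mRNA. Of 22 tested, 2 rose and 2 fell with mRNA, below the 12.6% and 15.7% of all genes, and 2 rose and 4 fell with vesicles (7.96% and 8.14% of all genes). The interaction was called for 7 of them (31.8%, against 28.0% of all genes). Ccl9, a CC chemokine of myeloid cells, had 130 and 132 CPM in uniSTING against 98.4 and 96.4 CPM in Mock libraries, and 222 and 221 CPM with EXOuniSTING against 309 and 311 CPM with EXOmock. Its log2 fold changes were 0.40 ± 0.04 and -0.49 ± 0.04 (adjusted p = 1.29e-05 and 2.19e-06). Ccr1, a receptor for such chemokines, had 8.20 and 8.08 CPM in uniSTING against 4.36 and 3.73 CPM in Mock libraries, and 106 and 106 CPM with EXOuniSTING against 129 and 129 CPM with EXOmock. The mRNA-treated cells and the vesicle-treated cells thus held this gene at very different levels. Ccl6, a chemokine gene next to Ccl9, had 60.6 and 62.0 CPM with EXOuniSTING against 144 and 137 CPM with EXOmock, and 6.87 and 6.62 CPM in uniSTING against 5.03 and 5.39 CPM in Mock libraries. Its interaction of 1.53 ± 0.22 (adjusted p = 0.000148) was not called by DESeq2 (0.133; range 2.54e-23 to 0.133).

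MHC class I presentation genes that were called with vesicles mostly rose. Of 23 tested, 5 rose and 4 fell with mRNA, near the 12.6% and 15.7% of all genes, and 9 rose and 2 fell with vesicles (7.96% and 8.14% of all genes). B2m, the shared light chain, had 651 and 633 CPM in uniSTING against 801 and 789 CPM in Mock libraries, and 855 and 842 CPM with EXOuniSTING against 724 and 699 CPM with EXOmock. Its log2 fold changes were -0.34 ± 0.02 and 0.25 ± 0.02 (adjusted p = 5.67e-08 and 2.67e-06). H2-K1 and H2-D1, the classical heavy chains, were opposite as well, with interactions of -0.35 ± 0.03 and -0.32 ± 0.03, although near-identical MHC genes can share reads. The nonclassical H2-T23 rose with vesicles, at 66.3 and 69.0 CPM with EXOuniSTING against 45.2 and 44.9 CPM with EXOmock, and had 50.5 and 49.5 CPM in uniSTING against 47.4 and 48.0 CPM in Mock libraries (interaction adjusted p = 2.34e-05).

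Many myeloid markers fell with mRNA. Of 25 tested leukocyte and myeloid markers, 3 rose and 13 fell with mRNA (12.6% and 15.7% of all genes), and 4 rose and 3 fell with vesicles (7.96% and 8.14%). The vesicle counts depended on the fit: with the 8 libraries alone, 5 rose and 8 fell with vesicles, and 5 rose and 13 fell with mRNA. Cd68, a lysosomal membrane protein of macrophages, had 956 and 974 CPM in uniSTING against 1240 and 1270 CPM in Mock libraries, and 973 and 965 CPM with EXOuniSTING against 836 and 859 CPM with EXOmock. Itgax, the integrin CD11c of dendritic cells and macrophages (chr7:127728719-127749829), had 17.4 and 15.5 CPM in uniSTING against 24.8 and 26.3 CPM in Mock libraries, and 17.8 and 18.6 CPM with EXOuniSTING against 13.7 and 11.5 CPM with EXOmock. Its log2 fold changes were -0.67 ± 0.12 and 0.54 ± 0.13 (adjusted p = 0.00104 and 0.0145). Itgb2, the beta chain with which CD11c pairs, went the other way, with 322 and 326 CPM in uniSTING against 278 and 276 CPM in Mock libraries and 336 and 331 CPM with EXOuniSTING against 387 and 393 CPM with EXOmock. Laptm5 and Fcer1g, a lysosomal membrane protein and an Fc receptor chain, fell with mRNA, at -0.45 ± 0.05 and -0.46 ± 0.04 (adjusted p = 6.61e-06 and 4.76e-06).

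Pattern recognition receptors were called in both directions with mRNA and mostly lower with vesicles. Of 27 tested receptor genes, 5 rose and 8 fell with mRNA (12.6% and 15.7% of all genes), and 3 rose and 9 fell with vesicles (7.96% and 8.14%). With the 8 libraries alone, 7 rose and 8 fell with mRNA, and 5 rose and 13 fell with vesicles. Cd14, the co-receptor for lipopolysaccharide, had 127 and 132 CPM in uniSTING against 99.6 and 101 CPM in Mock libraries, and 268 and 270 CPM with EXOuniSTING against 354 and 350 CPM with EXOmock (interaction 0.74 ± 0.05, adjusted p = 3.76e-07). Tlr2, a receptor for bacterial lipoproteins, fell in both and fell further with mRNA, with 90.2 and 88.7 CPM in uniSTING against 140 and 137 CPM in Mock libraries and 212 and 216 CPM with EXOuniSTING against 238 and 229 CPM with EXOmock. Marco, a scavenger receptor, also fell in both, with 34.9 and 35.7 CPM in uniSTING against 60.8 and 58.5 CPM in Mock libraries and 35.9 and 34.8 CPM with EXOuniSTING against 50.1 and 50.6 CPM with EXOmock. Its interaction missed the threshold (adjusted p = 0.0932; 2 of 16 alternatives passed, 0.0126 to 0.221).

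Genes of metabolism and of iron handling changed in both directions. Ldha, lactate dehydrogenase, had 2120 and 2140 CPM in uniSTING against 1510 and 1500 CPM in Mock libraries, and 1130 and 1120 CPM with EXOuniSTING against 1210 and 1200 CPM with EXOmock. Of 31 tested glycolysis and hypoxia genes, 12 rose and 5 fell with mRNA (12.6% and 15.7% of all genes), and 8 rose and 4 fell with vesicles (7.96% and 8.14%). Tfrc, the transferrin receptor, had 283 and 277 CPM in uniSTING against 146 and 148 CPM in Mock libraries, and 259 and 262 CPM with EXOuniSTING against 291 and 285 CPM with EXOmock, an interaction of 1.05 ± 0.05 (adjusted p = 7.35e-09). The ferritin genes Ftl1 and Fth1, which store the iron that this receptor brings in, were opposite the other way: Ftl1 had 6060 and 6120 CPM in uniSTING against 6650 and 6760 CPM in Mock libraries, and 5650 and 5710 CPM with EXOuniSTING against 4710 and 4660 CPM with EXOmock. Of 20 NRF2 targets and iron genes, 9 rose and 3 fell with mRNA, and 5 rose and 4 fell with vesicles, against the same shares of all genes.

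Of 45 cytosolic ribosomal protein genes, 11 rose and 22 fell with mRNA (12.6% and 15.7% of all genes), and 8 rose and 2 fell with vesicles (7.96% and 8.14%), with medians of -0.05 and 0.03. With upper-quartile scaling 14 rose and 17 fell with mRNA, and 19 rose and 0 fell with vesicles. Rpl38, a protein of the large subunit, had 120 and 119 CPM in uniSTING against 180 and 176 CPM in Mock libraries, and 216 and 206 CPM with EXOuniSTING against 180 and 181 CPM with EXOmock (interaction -0.82 ± 0.04, adjusted p = 8.93e-09). Rps29, of the small subunit, had 117 and 111 CPM in uniSTING against 175 and 166 CPM in Mock libraries, and 196 and 197 CPM with EXOuniSTING against 178 and 186 CPM with EXOmock. Ribosomal protein genes have many processed copies, and the counts are of uniquely mapped reads. Of 12 mitochondrially encoded mRNAs, 8 rose and 1 fell with mRNA, and 1 rose and 0 fell with vesicles, against the same shares of all genes and beside the mitochondrial shares given above. The vesicle tetraspanin Cd9 rose with mRNA and fell with vesicles, with 805 and 804 CPM in uniSTING against 679 and 679 CPM in Mock libraries and 799 and 786 CPM with EXOuniSTING against 911 and 899 CPM with EXOmock. Cd81, another tetraspanin, did the opposite (interaction -0.35 ± 0.05, adjusted p = 0.000191). Of 19 tested genes of vesicle tetraspanins and biogenesis, 3 rose and 7 fell with mRNA (12.6% and 15.7% of all genes). With vesicles 4 rose and 1 fell (7.96% and 8.14%). Among the 7 with a called interaction (36.8%, against 28.0% of all genes), Cd9 alone was higher with mRNA.

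**Figure D4:**
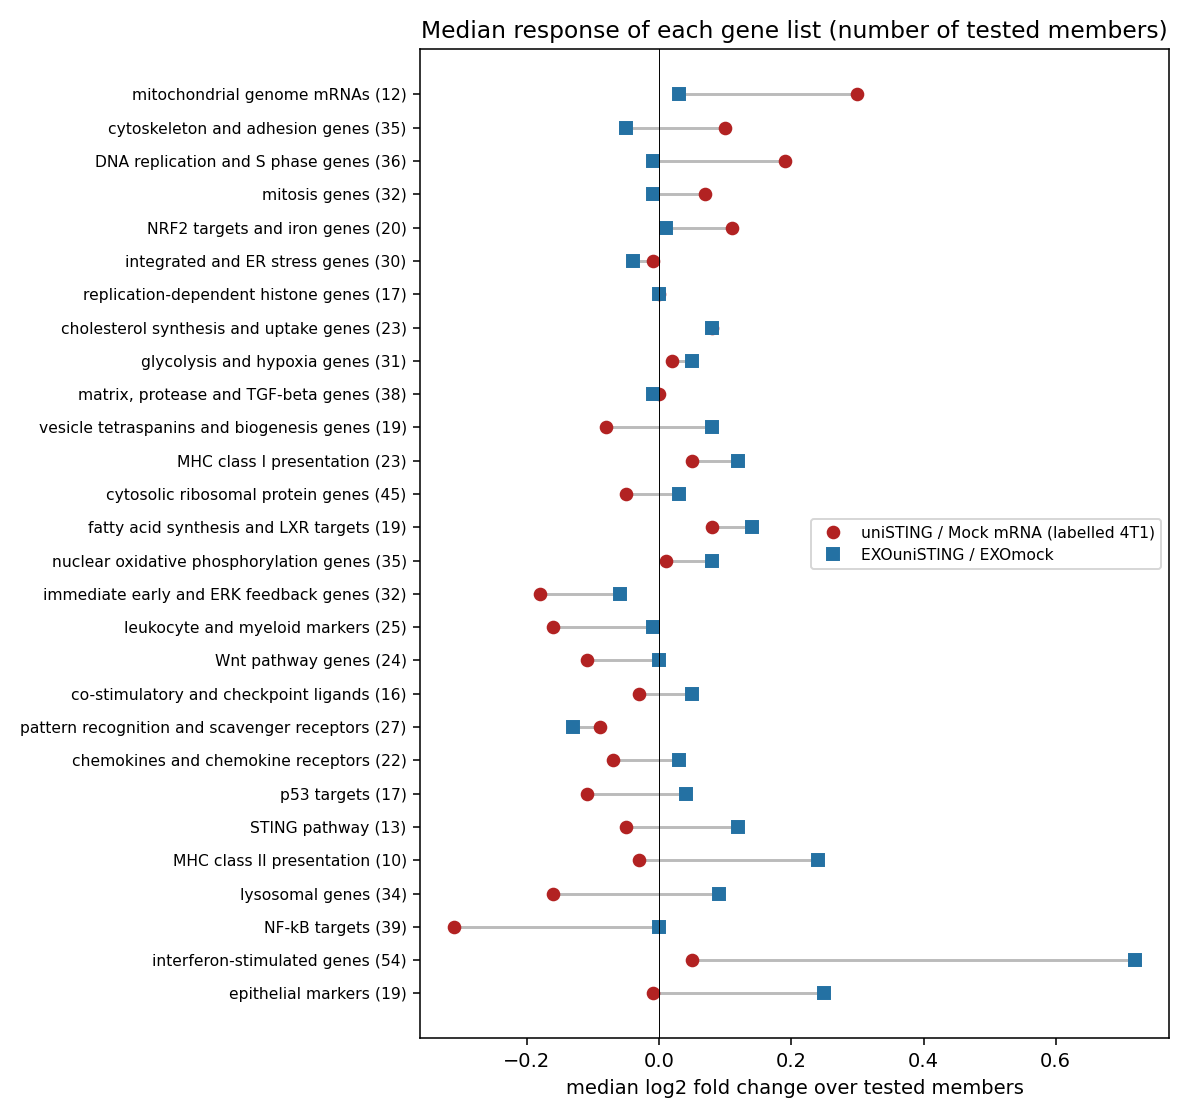
Median log2 fold change (x axis) of each gene list with at least 10 tested members, with mRNA as red circles and vesicles as blue squares joined by a line; the number of tested members is in brackets and lists are ordered by median interaction. Interferon-stimulated genes have the highest vesicle median (0.72) and NF-kB targets the lowest mRNA median (-0.31).

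Opposite genes of at least 5 CPM were ranked by the smaller of their 2 absolute log2 fold changes, and the first 6 with mRNA higher were genes of varied function. F5, coagulation factor V (chr1:163979407-164047846), had 2.34 and 3.04 CPM in uniSTING against 1.17 and 1.19 CPM in Mock libraries, and 11.5 and 11.9 CPM with EXOuniSTING against 23.7 and 25.7 CPM with EXOmock. Its log2 fold changes were 1.17 ± 0.20 and -1.08 ± 0.13 (adjusted p = 0.00111 and 0.00025). The changes were of like size and opposite sign, and the vesicle libraries held F5 at the higher level throughout. Malat1, a nuclear long noncoding RNA (chr19:5845718-5852700), had 380 and 370 CPM in uniSTING against 242 and 235 CPM in Mock libraries, and 227 and 223 CPM with EXOuniSTING against 365 and 365 CPM with EXOmock. Its interaction was 1.33 ± 0.07 (adjusted p = 1.75e-08), and uniSTING and EXOmock libraries shared the high level. Stfa3, a stefin protease inhibitor with close copies, had 9.06 and 8.32 CPM in uniSTING against 4.75 and 4.32 CPM in Mock libraries, and 14.3 and 14.9 CPM with EXOuniSTING against 30.4 and 30.9 CPM with EXOmock. Vasn, a membrane protein that binds TGF-beta, had 3.77 and 5.54 CPM in uniSTING against 1.12 and 1.78 CPM in Mock libraries, and 2.88 and 2.97 CPM with EXOuniSTING against 5.76 and 5.67 CPM with EXOmock, and it overlaps Dnaja3 on the same strand. Lpar2, a receptor for lysophosphatidic acid, and Ap4b1, an adaptor complex subunit, had interactions of 1.18 ± 0.21 and 1.06 ± 0.22 (adjusted p = 0.00094 and 0.00264).

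With mRNA lower and vesicles higher, Dbp, a circadian PAR bZIP factor (chr7:45354512-45359627), had 17.3 and 15.0 CPM in uniSTING against 27.4 and 29.5 CPM in Mock libraries, and 19.0 and 16.8 CPM with EXOuniSTING against 10.9 and 9.31 CPM with EXOmock. Its log2 fold changes were -0.85 ± 0.12 and 0.83 ± 0.14 (adjusted p = 0.000179 and 0.00151). Selenbp2, a selenium-binding protein gene with a close copy, had 3.77 and 2.54 CPM in uniSTING against 9.06 and 7.69 CPM in Mock libraries, and 3.35 and 3.49 CPM with EXOuniSTING against 1.99 and 1.5 CPM with EXOmock. Plpp1, a lipid phosphatase, had 7.18 and 7.01 CPM in uniSTING against 11.7 and 10.0 CPM in Mock libraries, and 5.63 and 5.98 CPM with EXOuniSTING against 3.27 and 3.85 CPM with EXOmock. Coq8a, a kinase-like protein of coenzyme Q synthesis, and Lrrc28 had interactions of -1.27 ± 0.19 and -1.20 ± 0.17 (adjusted p = 0.000266 and 0.000145). Dbp, Plpp1 and Coq8a overlap Sphk2, Mtrex and Cdc42bpa on the other strand.

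Few genes moved far in the same direction. Besides the interferon-stimulated genes, Rmi2, a subunit of a DNA junction-dissolving complex, and Hotairm1, a noncoding RNA of the HOXA cluster, led those that rose in both, at 0.52 ± 0.16 and 0.50 ± 0.16 and at 0.55 ± 0.12 and 0.49 ± 0.12. Id3, an inhibitor of basic helix-loop-helix factors, rose in both and far more with vesicles, with 46.4 and 43.8 CPM in uniSTING against 37.8 and 36.6 CPM in Mock libraries and 9.31 and 9.04 CPM with EXOuniSTING against 1.78 and 1.71 CPM with EXOmock (interaction -2.14 ± 0.14, adjusted p = 1.65e-07). F13a1, the A chain of factor XIII, made by macrophages, fell in both, with 57.2 and 57.1 CPM in uniSTING against 97.4 and 96.5 CPM in Mock libraries and 64.7 and 62.1 CPM with EXOuniSTING against 86.0 and 87.9 CPM with EXOmock. It fell further with mRNA (interaction -0.33 ± 0.06, adjusted p = 0.000662). Hbegf, an EGF receptor ligand, fell in both, with log2 fold changes of -0.59 ± 0.18 and -0.73 ± 0.15. Those of Rnf170, a ubiquitin ligase, were -0.52 ± 0.10 and -0.61 ± 0.10, and those of Ier3, an NF-kB and ERK target, were -0.39 ± 0.05 and -0.35 ± 0.04, with no called interaction for any of the 3.

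Cd24a, a surface sialoprotein, was an mRNA-only gene that fell, with 16.9 and 15.8 CPM in uniSTING against 38.4 and 38.0 CPM in Mock libraries and 12.1 and 14.3 CPM with EXOuniSTING against 10.5 and 12.4 CPM with EXOmock (interaction -1.47 ± 0.11, adjusted p = 6.67e-07). Pianp, Scml4, Card14 and Slc9a9 also fell with mRNA and had interactions between -2.58 and -1.27. Tuba1a, an alpha tubulin, rose with mRNA, with 43.9 and 41.0 CPM in uniSTING against 14.5 and 24.1 CPM in Mock libraries and 16.3 and 16.9 CPM with EXOuniSTING against 21.1 and 19.3 CPM with EXOmock. Osbp2, an oxysterol-binding protein, Farp2, a guanine nucleotide exchange factor, Ppih, a cyclophilin of the spliceosome, and Gpr35, an orphan receptor, rose with mRNA with interactions of 1.32 to 2.44. Osbp2 and Gpr35 reached 5 CPM only in the vesicle libraries. Osbp2 had 1.12 and 0.847 CPM in uniSTING against 0.28 and 0.159 CPM in Mock libraries, near the floor. Gpr35 had 0.916 and 1.5 CPM in uniSTING against 0.727 and 0.555 CPM in Mock libraries. The interaction of Ppih held in 11 of 16 alternatives (0.0962 at most, without EXOmock preparation 1) and that of Gpr35 in 9 of 16 (0.168 at most, without uniSTING preparation 2).

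Among the vesicle-only genes that fell and were named by rule, those outside the lists were Avil, an actin-regulating villin relative, Pfkfb1, a glycolysis regulator, and Noct, a circadian phosphatase. Noct had 4.35 and 3.25 CPM with EXOuniSTING against 5.62 and 7.11 CPM with EXOmock, and 5.75 and 5.20 CPM in uniSTING against 4.81 and 4.44 CPM in Mock libraries (interaction 1.00 ± 0.21, adjusted p = 0.00301). Avil was not called without uniSTING preparation 2 (adjusted p = 0.124; range 0.00317 to 0.124). Srp54b, a signal recognition particle gene with close copies, had 6.10 and 20.9 CPM with EXOuniSTING against 0 and 0.481 CPM with EXOmock, and 11.1 and 8.01 CPM in uniSTING against 17.8 and 5.91 CPM in Mock libraries. Replicates of Srp54b differed widely, limma did not call it (adjusted p = 0.137; range 1.08e-73 to 0.137), and its value is uncertain.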

How the data were processed

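Total RNA (1.0 µg per library) was sequenced from 12 mouse cell line libraries, 8 of which enter these comparisons. The authors deposited 1 table of raw counts per gene and library: per the file headers, featureCounts of Subread 2.0.1 counted exon reads of uniquely mapped alignments against GRCm39 with Ensembl release 103 and no strand setting, and per the submitters' processing notes the aligner was HISAT2. Reads of genes that overlap on either strand therefore cannot be told apart; among named genes this touches Hotairm1, Farp2, Card14, Avil, Pfkfb1, Fosl1, Slc16a3, Cdc20, Cox6c and Irf3 as well as those noted in the text. CPM are counts per 1000000 of the deposited total. Gene names came from the reference tables for 52093 of 53647 identifiers.

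Counts were fitted with edgeR 4.0.16 (quasi-likelihood, TMM, expression filter by group) in R 4.3.3, with 1 mean per group over all 12 libraries so that 6 residual degrees of freedom set the spread (common variation 3.05%); p-values were Benjamini-Hochberg adjusted over 14863 genes, and 0.05 was the threshold. The fit and the sorting into classes were run on simulated data. Those data held no differences between preparations, so the run cannot give the error rate in libraries that have them. Genes are opposite where both responses and the interaction passed, and same-direction where both responses passed. They are mRNA-only or vesicle-only where 1 response and the interaction passed. Preparations of a group differed beyond counting noise (mean chi-square per gene 2.22 to 3.01; medians 0.659 to 0.74 against 0.455 from counting alone, so that a part of the genes carries the mean), and each counts as a library.

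The comparison, gene lists and motifs were chosen with earlier results of these data known. Named genes follow a fixed rule: at least 5 CPM in a group, no overlap between treated and control libraries, a proper name, and the largest changes of each class (6 opposite and 5 others per direction), 12 set genes, and up to 4 members of each list with the lowest interaction p; other list members named were picked after their values were seen. Alternatives were other scalings and filters, DESeq2 1.42.0, limma 3.58.1, the 8 libraries alone, a replicate block, leaving out each library and, added after seeing the data, each preparation alone (log2 of CPM plus 0.5). The values of 1 interferon-stimulated gene are not reported here, though it is counted in its list.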

Additional observations from a re-analysis of the deposited data

Results flagged for a closer look

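For 12 opposite genes the difference between the mRNA and the vesicle response passed the threshold in the main fit and in all 16 alternatives. A called interaction was a condition of the opposite class, so passing in the main fit was fixed by the choice of genes. The alternatives reuse the same libraries and are no independent test. The interaction log2 fold changes, positive where the mRNA response is the higher one, were 2.25 for F5, 2.59 for Vasn, 1.98 for Stfa3, 1.33 for Malat1, 1.18 for Lpar2 and 1.06 for Ap4b1. They were -2.43 for Selenbp2, -1.68 for Dbp, -1.33 for Plpp1, -1.27 for Coq8a, -1.21 for Itgax and -1.20 for Lrrc28. These genes were picked among opposite genes of at least 5 CPM for the largest smaller response of the 2, so the values do not describe a typical gene, and other opposite genes had larger interactions. In groups of 2 libraries no test for a library standing apart was made.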

How the results depend on the processing

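Of the 156 named genes with a test, those that the edgeR fit called for the interaction kept its sign under every alternative. Called interactions that were lost under at least 1 alternative were those of Isg15, Rsad2, Ppih, Gpr35, Srp54b, Ccl6, Avil, Batf3, Ctss, Lgals9, Dhcr7, Mvk, Hist1h2ab and Gsk3b. Small, uncalled interactions changed sign under some settings. Rmi2, -0.16 to 0.21 over left-out libraries, was at -0.16, -0.05 and -0.02 without uniSTING preparation 1, Mock preparation 2 or EXOmock preparation 2, and at -0.06 in preparation 2 alone. Hotairm1, -0.06 to 0.22, was at -0.06 without uniSTING or Mock preparation 1, -0.01 without EXOmock preparation 2 and -0.13 in preparation 2 alone. Hbegf, -0.10 to 0.50, was at -0.10 without EXOuniSTING preparation 1, Rnf170 at -0.02 in preparation 1 alone, and Ier3, -0.08 to 0.0, at 0.0 without Mock preparation 1 and 0.01 in preparation 2 alone.

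DESeq2 called fewer genes: 1231 interactions higher with mRNA, 219 opposite genes with mRNA higher, 273 vesicle-only genes that fell, 51 and 67 genes alike and higher or lower, and 15 and 12 genes higher or lower in both by unequal amounts. Upper-quartile scaling gave 37 genes higher in both by unequal amounts and limma 35 lower; the cause was not tested. Leaving out 1 library at a time gave 1500 to 1721 interactions higher with mRNA and 1744 to 2008 higher with vesicles. Opposite genes ranged over 258 to 340 (mRNA higher) and 297 to 431 (mRNA lower), mRNA-only genes over 610 to 865 (higher) and 685 to 1130 (lower), and vesicle-only genes over 194 to 428 (higher) and 247 to 465 (lower). Genes alike in both ranged over 40 to 70 (higher) and 69 to 109 (lower), and genes of unequal change over 10 to 20 (higher) and 12 to 23 (lower). A group reduced to 1 library was assumed to vary like the others.

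With a replicate block the fit called 2005 interactions higher with mRNA and 2302 higher with vesicles, with 438 and 539 opposite genes. Differences between preparations correlated between groups (r of 0.573 to 0.678 over 9939 genes), but only 2 numbers exist and no label says what they mark. Under the block Isg15 lost its called interaction (adjusted p = 0.0678), and Ifi204, Irf3 and Tnf gained one (0.0486, 0.0429 and 0.032). At 3 counts the floor was 0.115 to 0.213 CPM, so genes below a few CPM had wide errors.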

Other observations

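Of 32 tested genes of mitosis, 12 rose and 3 fell with mRNA (12.6% and 15.7% of all genes), and 4 rose and 6 fell with vesicles (7.96% and 8.14%); the same shares of all genes stand against each count that follows. Cdc20, which activates the anaphase-promoting complex, had 139 and 140 CPM in uniSTING against 118 and 117 CPM in Mock libraries, and 77.4 and 77.2 CPM with EXOuniSTING against 93.4 and 89.6 CPM with EXOmock. Mad2l1, of the spindle checkpoint, rose with mRNA at 0.39 ± 0.04 (adjusted p = 1.32e-05) and was at 0.01 ± 0.04 with vesicles. The histone gene Hist2h2be, whose mRNA can be polyadenylated, had 62.9 and 69.2 CPM in uniSTING against 78.6 and 78.0 CPM in Mock libraries, and 64.8 and 61.8 CPM with EXOuniSTING against 44.2 and 41.1 CPM with EXOmock. Of 17 tested histone genes, 1 rose and 2 fell with mRNA, and 3 rose and 0 fell with vesicles.

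Of 19 tested fatty acid synthesis and LXR target genes, 8 rose and 3 fell with mRNA, and 8 rose and 5 fell with vesicles. Fasn, fatty acid synthase, had 412 and 420 CPM in uniSTING against 382 and 392 CPM in Mock libraries, and 142 and 138 CPM with EXOuniSTING against 187 and 190 CPM with EXOmock. Scd1, a desaturase, rose with vesicles, with 43.9 and 37.7 CPM with EXOuniSTING against 22.9 and 20.5 CPM with EXOmock, and had 92.8 and 88.7 CPM in uniSTING against 87.5 and 84.0 CPM in Mock libraries. Of 23 tested cholesterol genes, 8 rose and 2 fell with mRNA and 7 rose and 1 fell with vesicles, and the median was 0.08 with both; 4 of them, Lss, Tm7sf2, Msmo1 and Nsdhl, were higher in both without a called interaction. Of 30 integrated and ER stress genes, 9 rose and 5 fell with mRNA, and 2 rose and 10 fell with vesicles; the falls with mRNA and the rises with vesicles were near the shares of all genes. Trib3, a pseudokinase of that response, had 82.7 and 88.5 CPM in uniSTING against 68.2 and 70.4 CPM in Mock libraries, and 330 and 336 CPM with EXOuniSTING against 375 and 371 CPM with EXOmock. Thbs1, the matrix protein thrombospondin 1, had 43.7 and 43.1 CPM in uniSTING against 35.4 and 36.6 CPM in Mock libraries, and 578 and 578 CPM with EXOuniSTING against 855 and 846 CPM with EXOmock. Among 17 tested p53 targets, 2 rose, near the share of all genes, and 7 fell with mRNA, and 4 rose and 3 fell with vesicles; the interaction of Gdf15, a stress cytokine, was -0.60 ± 0.07 (adjusted p = 5.5e-05). Among 24 tested Wnt pathway genes, 1 rose and 6 fell with mRNA and 3 rose and 2 fell with vesicles, and Fzd7, a Wnt receptor, was opposite at -0.37 ± 0.03 and 0.31 ± 0.04.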
